A study of Mus musculus with 11 samples.

Results

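The interferon regulatory factors were followed as 8 genes, taken by their symbols (Irf1, Irf2, Irf3, Irf4, Irf5, Irf7, Irf8 and Irf9) from the 25677 genes listed in the kidney RNA-seq counts of a lupus nephritis model. All 8 were found and all 8 passed the filter on low counts in each comparison. The kidneys came from 3 untreated control mice (Ctr, genotype C57B6 in the labels and C57BL/6J in the study's methods, a strain without lupus), 4 lupus-prone animals of the genotype MRL/lpr without treatment (Lpr), and 4 animals of that genotype given DNase I, an enzyme that cuts extracellular DNA, by daily intraperitoneal injection until they were killed (DNase). All mice were female by the study's methods and 21 weeks old at sampling, with 1 library per mouse. Both MRL/lpr groups share the MRL background and the lpr mutation of Fas, a death receptor of lymphocytes. Strain and nephritis cannot be told apart in any comparison with Ctr, and no healthy MRL kidney was analysed here.

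The interferon regulatory factors are transcription factors that share a DNA-binding domain for GAAA repeats. IRF3 and IRF7 are switched on by phosphorylation below sensors of nucleic acids and start the transcription of type I interferons, with IRF5 acting beside them in myeloid cells. Secreted interferons then act through JAK kinases and STAT proteins, which bind IRF9 to form the complex ISGF3 and induce the interferon-stimulated genes, Irf7 among them. IRF1 is induced by interferon gamma and drives antigen presentation, IRF2 is its usual antagonist, and IRF4 and IRF8 are lineage factors of plasma cells, activated lymphocytes, dendritic cells and macrophages. Nucleic acid sensing and interferon are long associated with lupus, which gives the question here: how each factor stood in the diseased kidney, and whether it was lower after DNase I.

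Library totals ran from 33469858 to 38460873 counts. Lpr replicate 3 stood apart, because its counts fell with gene length (slope of -0.39 on the log2 scale per doubling of length, against -0.04 to 0.08 in the other 10 libraries). For the factors and the gene lists, the counts of calls that it moves are given with and without it. The kidney identity held by its markers, since the summed level of 10 genes of tubule, podocyte and endothelial cells was 15253 to 16340 CPM in Ctr, 9636 to 14111 in Lpr and 12491 to 16134 in DNase. Of these genes 0 were called in Lpr against Ctr, and 2 were called lower without Lpr replicate 3. CPM is the count relative to the total of its library, scaled with TMM factors. Leukocyte markers were higher in both MRL/lpr groups than in Ctr. The summed level of 5 pan-leukocyte genes was 49.8 to 69.9 CPM in Ctr, 287 to 507 in Lpr and 230 to 432 in DNase. In whole tissue, a gene that is lower or higher because cells of a type are fewer or more numerous cannot be told apart from a gene with less or more RNA per cell.

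The start regions of the 8 genes were read first, because interferon signals reach several members through short DNA sites. RefSeq promoters (build GRCm38.p6, 250 bases before to 50 bases after a start) matched all 8 genes with 11 starts. Both strands were searched for 3 motifs: TTCNNNGAA, the gamma-activated site that STAT dimers bind, GAAANNGAAA, the interferon-stimulated response element of ISGF3 and the IRF proteins, and GGAANNGAAA, the composite site for PU.1 with IRF4 or IRF8. Irf1, Irf2 and Irf8 held a match in this window, and these stretches are shown. The other listed start of Irf1 and of Irf8 had no match. Irf1 and Irf8 were called higher in the Lpr kidneys, whereas Irf2 was called there only without Lpr replicate 3. Capitals mark the gamma-activated sites and the response element.
Irf1, chr11:53769909-53769947, + strand: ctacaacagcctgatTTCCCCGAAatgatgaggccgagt
Irf2, chr8:46739495-46739544, + strand: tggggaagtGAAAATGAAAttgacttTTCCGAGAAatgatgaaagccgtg
Irf8, chr8:120736172-120736228, + strand: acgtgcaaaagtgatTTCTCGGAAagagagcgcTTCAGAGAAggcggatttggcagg
The Irf1 stretch has 1 gamma-activated site, which begins at position -90 from the start. The Irf8 stretch has 2, at positions -171 and -153. The Irf2 stretch has 1 at position -224 and also a response element at position -241, which overlaps a composite site that begins at position -247 in the lower-case letters before it. The gamma-activated letters occur in 8.30% of 32851 RefSeq promoters, the response element in 3.44% and the composite site in 2.72%. Counted by gene over all its starts, the shares were 9.55%, 3.99% and 3.16% of 27025 genes. Irf3, Irf4, Irf5, Irf7 and Irf9 had none of these letters in the window, and of them Irf7 and Irf9 were also called higher in Lpr. The matches are descriptions of sequence, and the RNA data do not show binding.

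The genes lie at chromosome 11, 53770014 to 53778374 (Irf1), chromosome 8, 46739745 to 46847458 (Irf2), chromosome 7, 44997648 to 45002848 (Irf3), chromosome 13, 30749233 to 30766981 (Irf4), chromosome 6, 29526130 to 29541869 (Irf5), chromosome 7, 141263183 to 141266499 on the minus strand (Irf7), chromosome 8, 120736358 to 120756694 (Irf8) and chromosome 14, 55603985 to 55610030 (Irf9), by RefSeq on GRCm38.p6. In the GENCODE M21 annotation, Irf3 shares 1065 bases with Bcl2l12, Irf5 shares 1045 bases with Tnpo3, Irf1 shares 907 bases with Gm17334 and Irf7 shares 45 bases with Phrf1, all on the opposite strand. Irf2 overlaps 3 gene models of the opposite strand, Gm45479 by 1723 bases, Gm45481 by 877 and Gm31172 by 433, and Irf9 shares 123 bases with Rnf31 on its own strand. The Irf8 locus lies within the readthrough gene model Gm20388 on the same strand. The strand setting of the counting is not given in the sources used here, so reads in these overlaps cannot be assigned with certainty.

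Levels were compared between genes as FPKM, which divides by gene length. In Ctr kidneys Irf3 stood first at 19.8 ± 1.34 FPKM (SD, n = 3) and Irf4 last at 0.315 ± 0.181. Between them came Irf7 at 9.34 ± 0.777, Irf9 at 8.28 ± 1.13, Irf1 at 7.62 ± 0.109, Irf8 at 5.72 ± 0.581, Irf5 at 2.07 ± 0.329 and Irf2 at 1.68 ± 0.107. The ranges of Irf7 and Irf9, of Irf9 and Irf1, and of Irf5 and Irf2 overlapped. Within each Ctr kidney Irf5 was above Irf2, whereas the order of Irf7 and Irf9 and that of Irf9 and Irf1 differed between kidneys.

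In Lpr kidneys Irf1 stood first at 51.2 ± 23.6 FPKM (SD, n = 4), followed by Irf7 at 34.7 ± 19.1, Irf3 at 22.2 ± 3.42, Irf9 at 20.2 ± 4.90 and Irf8 at 19.6 ± 8.66. The ranges of each of these neighbours overlapped, and only the step from Irf8 down to Irf5 at 3.39 ± 1.09 was free of overlap. Within each Lpr kidney, however, Irf1 was above Irf7. In DNase kidneys Irf1 was again first at 34.8 ± 3.84 FPKM (n = 4), followed by Irf3 at 22.0 ± 1.12 and Irf7 at 18.4 ± 3.69. There the ranges of Irf1 and Irf3 did not overlap, whereas those of Irf3 and Irf7 did, though Irf3 was above Irf7 within each DNase kidney. The constitutive factor Irf3 made up 36.1% ± 1.75 of the summed FPKM of the 8 genes in Ctr, 16.3% ± 8.00 in Lpr and 19.0% ± 1.15 in DNase, and Irf1 made up 13.9% ± 0.489, 32.1% ± 4.03 and 30.0% ± 0.802.

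**Figure D1:**
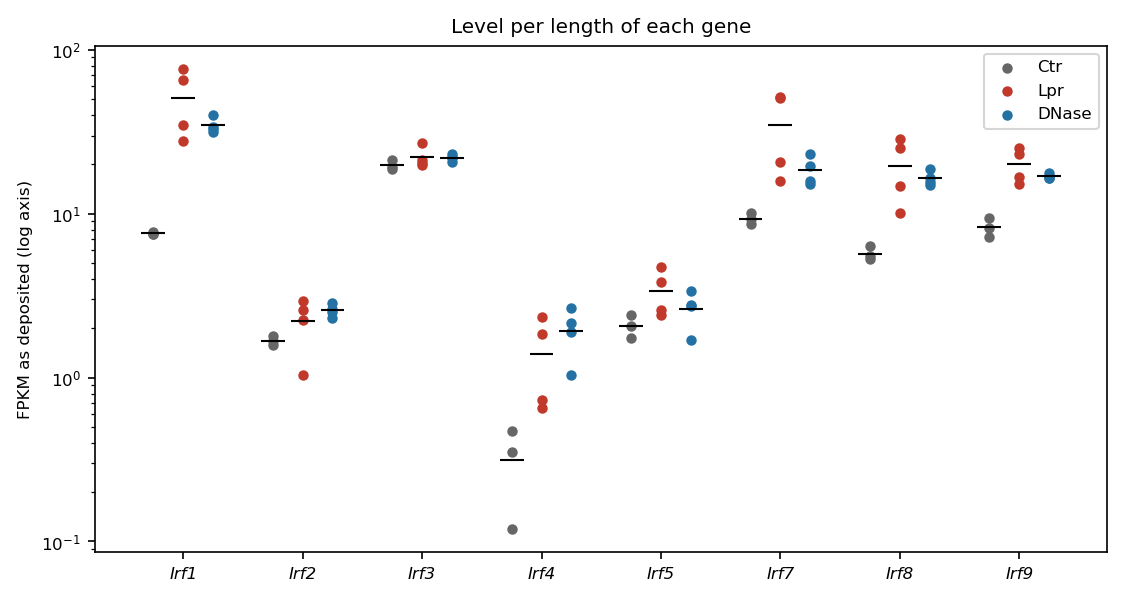
FPKM of each interferon regulatory factor gene (log axis), with 1 point per kidney coloured by group and a short line at each group mean. Irf3 lies near 20 FPKM in all groups, while Irf1 moves from below it in Ctr (7.62) to above it in Lpr (51.2) and DNase (34.8).

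The order rests in part on the gene length used. The lengths behind the deposited FPKM were 12519 bases for Irf2, 7512 for Irf5, 1934 for Irf7, 3435 for Irf8 and 2688 for Irf9, against summed exon lengths of 7396, 2905, 3776, 7055 and 5386 in GENCODE M21. With the GENCODE lengths the Ctr order became Irf3, Irf1, Irf5, Irf7, Irf9, Irf2, Irf8 and Irf4, while Irf1 stayed first in Lpr and in DNase. The change of a ratio of 2 genes between groups does not depend on the lengths used. The FPKM ratio of Irf1 to its antagonist Irf2 was 4.33 to 4.79 in Ctr, 15.4 to 27.0 in Lpr and 11.1 to 15.3 in DNase. The value of 27.0 was that of Lpr replicate 3, whose counts fell with gene length (3359 bases for Irf1 and 12519 for Irf2). Lpr replicates 1, 2 and 4 stood at 25.2, 26.1 and 15.4. The ratio of the inducible Irf7 to the constitutive Irf3 was 0.434 to 0.544 in Ctr, 0.583 to 2.61 in Lpr and 0.680 to 0.993 in DNase.

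The first comparison asked which factors differed between the nephritic and the normal kidney. Irf1, Irf7, Irf8 and Irf9 were higher in Lpr, whereas Irf2, Irf3, Irf4 and Irf5 did not pass the test, an edgeR quasi-likelihood test with Benjamini-Hochberg adjustment over 16074 genes and a call at an adjusted p under 0.05. Thus 4 of 8 members were called higher and 0 lower, where 7.27% of all genes tested were called higher and 2.92% lower. With the study's further limit of an absolute log2 fold change above 2, 1 member (Irf1) was called, against 4.65% of all genes. In 5 of 8 members the 4 Lpr kidneys all lay above the 3 Ctr kidneys, as they did for 14.2% of all genes.

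Irf1, the factor of interferon gamma signalling and antigen presentation, stood at 26.1, 27.1 and 26.4 CPM in the 3 Ctr kidneys. It stood at 222, 250, 100 and 113 CPM in Lpr replicates 1 to 4. Every Lpr kidney was thus above every Ctr kidney, and Lpr replicates 1 and 2 were above replicates 3 and 4. The fold change was 6.51 (log2 2.70, SE 0.36, edgeR adjusted p = 0.00223).

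Irf7, the master factor of type I interferon transcription, was measured at 20.2, 19.1 and 16.9 CPM in Ctr. In Lpr it was measured at 99.4, 96.5, 32.7 and 38.6 CPM. The groups did not overlap, and the same 2 Lpr kidneys that were high for Irf1 were high for Irf7. The fold change was 3.59 (log2 1.85, SE 0.42, edgeR adjusted p = 0.0267). This call was lost without Ctr replicate 1, 2 or 3 (adjusted p = 0.0995, 0.103 and 0.108) and without Lpr replicate 1 or 2 (adjusted p = 0.0592 and 0.0682), with log2 fold changes of 1.60 to 2.07 over all the fits that left out a kidney.

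Irf9, the DNA-binding subunit of ISGF3, stood at 19.9, 27.1 and 22.3 CPM in Ctr and at 69.1, 60.7, 43.8 and 43.6 CPM in Lpr. The groups did not overlap, and the fold change of 2.37 (log2 1.24, SE 0.22) passed the test with an edgeR adjusted p of 0.00911. Without Ctr replicate 1 or 3 the adjusted p was 0.0594 and 0.0514. Stat2, the gene of its partner in the complex, ran from 17.1 to 21.8 CPM in Ctr and from 18.1 to 75.2 in Lpr and did not pass the test (log2 1.27, SE 0.41, edgeR adjusted p = 0.0997), with Lpr replicate 3 at the Ctr level.

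Irf8, the lineage factor of macrophages and type 1 conventional dendritic cells, stood at 22.5, 19.3 and 19.3 CPM in Ctr. Its Lpr values were 99.1, 84.2, 36.9 and 48.7 CPM, again without overlap and again highest in Lpr replicates 1 and 2. The fold change was 3.32 (log2 1.73, SE 0.34, edgeR adjusted p = 0.0138), and the call was lost without any 1 of the Ctr kidneys (adjusted p = 0.0581 to 0.0687). Irf4, which drives plasma cell formation and T cell activation, was low throughout, at 1.73, 0.606 and 2.31 CPM in Ctr, or 19 to 77 counts, and 3.53, 8.57, 3.31 and 10.9 CPM in Lpr. Its kidneys did not overlap either, but the log2 fold change of 2.09 (SE 0.59) did not pass the edgeR test (adjusted p = 0.0620). It was called with DESeq2 (adjusted p = 0.00199), without the filter on low counts (0.0399), with all 3 groups in 1 fit (0.0215) and after the trend over gene length was removed (0.0401).

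Irf3, the constitutive factor below cGAS, STING and RNA sensors, stood at 48.6, 57.5 and 49.8 CPM in Ctr and at 54.9, 48.5, 73.3 and 49.7 in Lpr. The groups overlapped, and the log2 fold change was 0.13 (95% confidence interval -0.30 to 0.57, edgeR adjusted p = 0.743). Irf2, the antagonist of Irf1, stood at 21.6, 21.1 and 22.8 CPM in Ctr and at 32.8, 35.8, 13.8 and 27.4 CPM in Lpr. Lpr replicate 3 alone was below the Ctr range for Irf2, whose length in the FPKM is 12519 bases, and above it for Irf3, at 2532 bases. This is the library whose counts fell with gene length. With that library the log2 fold change of Irf2 was 0.34 (edgeR adjusted p = 0.579), and without it 0.56 (adjusted p = 0.0185). Irf5, the factor of Toll-like receptor signalling in macrophages and B cells, stood at 18.5, 14.0 and 15.8 CPM in Ctr and at 29.4, 34.3, 20.7 and 17.5 CPM in Lpr, where 1 kidney overlapped Ctr. Its log2 fold change of 0.68 did not pass the test (SE 0.26, edgeR adjusted p = 0.169).

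**Figure D2:**
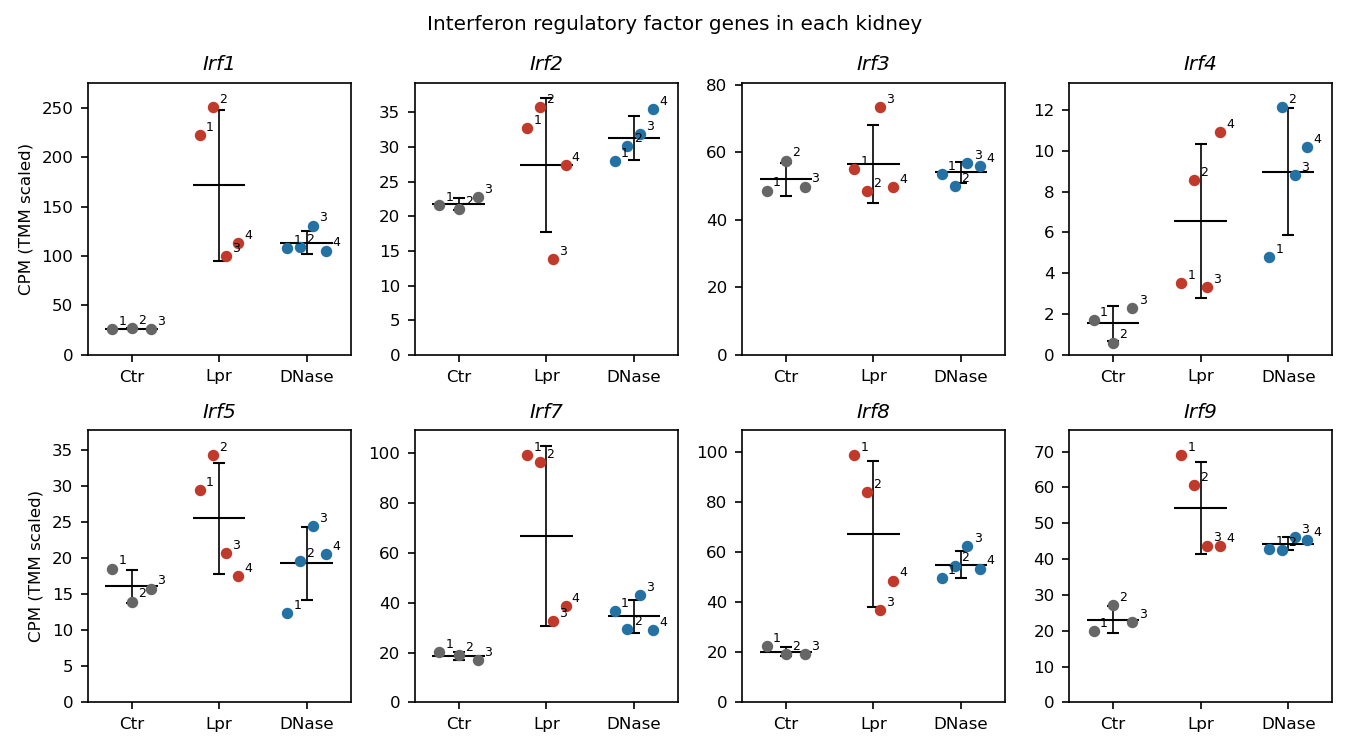
CPM (TMM scaled, axis from 0) of the 8 genes in each kidney by group, with the replicate number beside each point, a horizontal line at the group mean and a bar of 1 SD. Lpr replicates 1 and 2 stand above the other kidneys for Irf1, Irf7, Irf8 and Irf9, and Lpr replicate 3 is low for Irf2 and high for Irf3.

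Without Lpr replicate 3 the count of members called higher was 6 of 8, with Irf2 and Irf4 added (Irf4 log2 2.31, edgeR adjusted p = 0.0294), where 11.0% of 15855 genes were called higher. Irf3 then had a log2 fold change of -0.02. Markers of the cells that express these factors also moved in Lpr against Ctr. The marker counts that follow are from the fit with all 4 Lpr kidneys, where 7.27% of all genes were called higher. All 8 T cell markers were called higher (summed level 5.39 to 8.01 CPM in Ctr and 83.4 to 177 in Lpr), as were 8 of 9 markers of monocytes and macrophages (169 to 231 and 925 to 1767 CPM), 4 of 7 of conventional dendritic cells (13.8 to 16.9 and 22.5 to 61.3), 5 of 7 of plasma cells (176 to 192 and 399 to 1014), and 3 of the 4 tested of neutrophils (1.74 to 5.07 and 15.4 to 37.8 over 7 genes, with 1 gene at 0 in all Ctr kidneys). Of the 7 conventional dendritic cell markers 5 were above 0, while Zbtb46 (log2 -0.07) and Cd209a (-1.76, edgeR adjusted p = 0.118) were below. Cd209a was called lower in DNase against Ctr (log2 -3.36, edgeR adjusted p = 0.00122). Without Lpr replicate 3, 9 of 9 monocyte and macrophage markers and 4 of 6 tested plasma cell markers were called higher. Of conventional dendritic cell markers 5 of 7 were then higher and 1 lower. For plasmacytoid dendritic cells, the classic source of type I interferon, 0 of 5 markers were called and the summed levels overlapped, at 28.3 to 34.9 CPM in Ctr and 24.0 to 45.3 in Lpr. Most of this sum was Tcf4, a gene of many cell types (mean 29.2 CPM in Ctr, log2 fold change 0.10), while Siglech, Ccr9, Pacsin1 and Cox6a2 had log2 fold changes of 0.69, 1.23, 1.46 and 0.84. Without Lpr replicate 3, 1 of these 5 markers was called. For B cells 1 of 5 tested markers was called (2.42 to 8.01 and 8.56 to 18.6 CPM) and for NK cells 1 of 2 (0.542 to 1.13 and 3.43 to 10.5 CPM). The part of these cells in the levels of the 8 factors was not tested beyond the comparison with Ptprc given further on.

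The second comparison asked whether the factors were lower after DNase I. None of the 8 passed the test between DNase and Lpr, and in none did the groups separate. The edgeR test called 0 of 15832 genes here (0%), so that 0 of 8 members called reads no differently from the background. At an unadjusted p under 0.05, 886 genes were found and 1 of 8 members (Irf7) was lower, as were 3.43% of all genes. DESeq2 called 23 genes and 0 of the 8 members. The groups did not overlap in 0 of 8 members and in 3.76% of all genes in either direction.

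Irf7 was measured at 36.8, 29.3, 43.1 and 29.0 CPM in the DNase kidneys, against 99.4, 96.5, 32.7 and 38.6 CPM in Lpr. All 4 DNase kidneys lay below Lpr replicates 1 and 2, and their range enclosed replicates 3 and 4. The log2 fold change was -0.95 (95% confidence interval -1.76 to -0.14, unadjusted p = 0.0258, edgeR adjusted p = 0.850). Irf1 stood at 108, 109, 131 and 106 CPM in DNase, with all 4 kidneys inside the Lpr range of 100 to 250 CPM and below Lpr replicates 1 and 2. Its log2 fold change was -0.60 (interval -1.24 to 0.04, edgeR adjusted p = 0.854).

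Irf9 stood at 42.9, 42.5, 46.2 and 45.3 CPM in DNase (log2 -0.30, interval -0.68 to 0.08). These values again sat beside Lpr replicates 3 and 4 and below replicates 1 and 2. Its partner gene Stat2 (log2 -0.32, SE 0.34) did not pass the test either. Irf8 stood at 49.7, 54.7, 62.4 and 53.5 CPM in DNase (log2 -0.29, interval -0.91 to 0.34), with all 4 kidneys inside the Lpr range. Irf5 stood at 12.4, 19.6, 24.4 and 20.6 CPM (log2 -0.41, interval -0.99 to 0.17), and DNase replicate 1 was below the other kidneys of both MRL/lpr groups. The edgeR adjusted p of these 3 genes was 0.854, 0.856 and 0.854.

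The other 3 factors had fold changes near or above 1. Irf4 stood at 4.80, 12.1, 8.80 and 10.2 CPM in DNase (log2 0.45, interval -0.51 to 1.40). Irf2 stood at 28.0, 30.1, 31.8 and 35.5 CPM (log2 0.19, interval -0.38 to 0.76), and Irf3 at 53.5, 50.0, 56.9 and 55.9 CPM (log2 -0.07, interval -0.43 to 0.28). Without Lpr replicate 3 the last 2 changed sign, to -0.03 for Irf2 and 0.08 for Irf3. Marker levels in DNase lay across those of Lpr, with summed levels of 83.1 to 134 CPM for T cells, 697 to 1290 for monocytes and macrophages, 466 to 1257 for plasma cells, 38.2 to 66.1 for conventional dendritic cells, 35.9 to 41.9 for plasmacytoid dendritic cells and 13.4 to 24.7 for neutrophils, and 0 markers were called between DNase and Lpr. The median log2 fold change of the 8 members was -0.29, against -0.02 over all genes tested.

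The third comparison set the treated kidneys against Ctr, the same 3 kidneys used as reference above, so the 2 comparisons are not independent and their values are given side by side only. Here 6 of 8 members were called higher and 0 lower, where 13.1% of 16100 genes were called higher and 8.61% lower. The 4 DNase kidneys lay above all Ctr kidneys in 6 of 8 members and in 18.2% of all genes. With the limit of 2 on the log2 fold change, 2 members (Irf1 and Irf4) were called, against 4.56% of genes.

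Irf1 was 4.27-fold higher in DNase than in Ctr (log2 2.10, SE 0.10, edgeR adjusted p = 2.12e-06), beside 6.51-fold in Lpr. Irf8 was 2.70-fold higher (log2 1.44, SE 0.11, adjusted p = 2.18e-05), beside 3.32-fold. Irf9 was 1.92-fold higher (log2 0.94, SE 0.11, adjusted p = 0.000277), beside 2.37-fold, and Irf7 was 1.84-fold higher (log2 0.88, SE 0.15, adjusted p = 0.00264), beside 3.59-fold. Irf4 was 5.78-fold higher (log2 2.53, SE 0.45, adjusted p = 0.00341), beside 4.27-fold. Irf2 was 1.44-fold higher (log2 0.52, SE 0.10, adjusted p = 0.00490). The standard errors of Irf1, Irf7, Irf8 and Irf9 were smaller here than in the Lpr comparison, and the 4 DNase kidneys lay closer together than the 4 Lpr kidneys. Irf3 (log2 0.06, interval -0.13 to 0.24) and Irf5 (log2 0.26, interval -0.22 to 0.74) did not pass. When all 3 groups shared 1 fit, and thus 1 estimate of spread, Irf2 (adjusted p = 0.267) and Irf7 (adjusted p = 0.169) lost their calls.

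**Figure D3:**
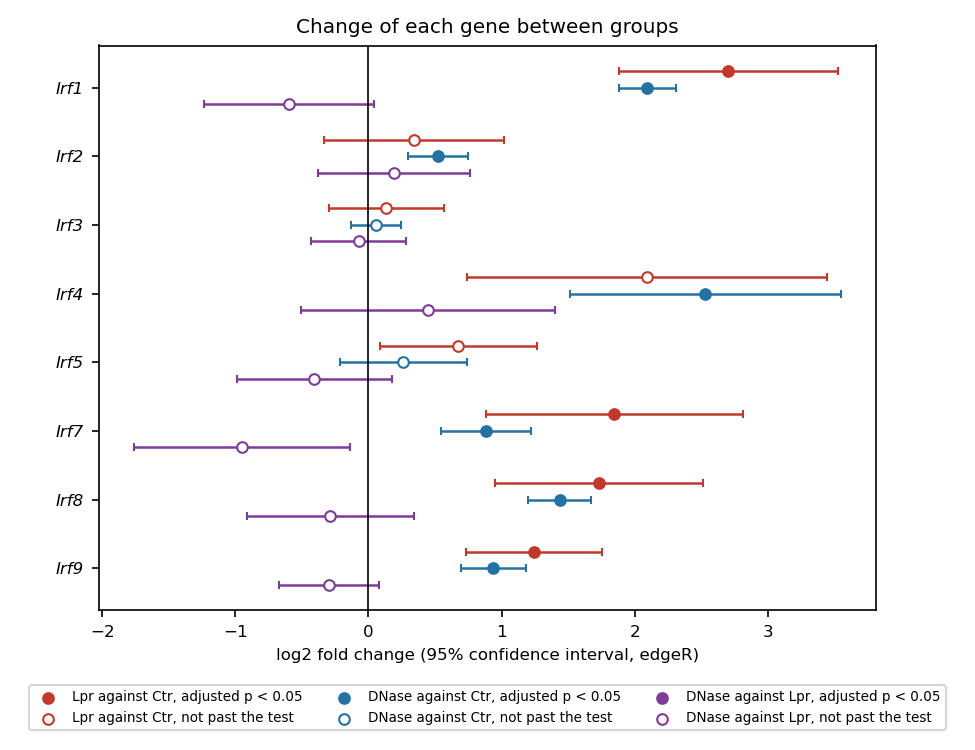
Log2 fold change of each gene in the 3 pairwise comparisons, with the 95% confidence interval from edgeR, where filled points have an adjusted p under 0.05. Filled points appear for 4 genes in Lpr against Ctr and 6 in DNase against Ctr, and none in DNase against Lpr, where only the interval of Irf7 (-0.95) lies wholly below 0.

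Because leukocytes enter the nephritic kidney, each factor was also set against Ptprc, the gene of the pan-leukocyte antigen CD45. Ptprc was at 11.9, 6.82 and 8.66 CPM in Ctr, at 55.8, 109, 44.9 and 68.6 CPM in Lpr and at 52.2, 75.4, 82.3 and 67.5 CPM in DNase. It was higher in Lpr than in Ctr (log2 2.94, edgeR adjusted p = 0.00165) and its means in DNase and Lpr were 69.4 and 69.5 CPM (log2 -0.01, 95% confidence interval -0.60 to 0.58). The difference between a factor and Ptprc on the log2 CPM scale was tested by exact two-sided permutation over kidneys. With 3 against 4 kidneys the exact permutation test cannot go below p = 0.0571, so no comparison with Ctr can pass it.

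Ptprc rose further than any of the 8 factors, so a lower value relative to it is the rule. In Lpr against Ctr 8 of 8 factors were lower relative to Ptprc, as were 97.6% of 16073 genes. Irf1 was lower by 0.30 in log2 (exact permutation p = 0.571) and Irf4 by 0.83 (p = 0.171), and for both the groups overlapped. The differences were -1.22 for Irf7, -1.26 for Irf8, -1.66 for Irf9, -2.26 for Irf5, -2.63 for Irf2 and -2.77 for Irf3. For Irf2, Irf3, Irf5, Irf8 and Irf9 the kidneys did not overlap and p was the smallest possible (0.0571, 0.0914 after Benjamini-Hochberg adjustment over the 8 members), and 91.6% of all genes did not overlap in this direction, so the 5 of 8 say nothing particular of the family. The ranges of Irf1, Irf4 and Irf7 relative to Ptprc overlapped between the groups. Between DNase and Lpr the largest differences relative to Ptprc were -0.85 for Irf7 and -0.54 for Irf1 (exact permutation p = 0.0571 each, adjusted 0.229, smallest possible 0.0286). In DNase against Ctr 8 of 8 factors were lower relative to Ptprc (97.9% of 16099 genes), from -0.33 for Irf4 and -0.85 for Irf1 to -2.71 for Irf5 and -2.87 for Irf3, and in 7 of 8 the kidneys did not overlap, as in 95.0% of genes (p = 0.0571 by the exact permutation test, the smallest possible, 0.0653 adjusted). The sign for Irf4 was not stable, since its difference ran from -0.68 to 0.07 when 1 kidney was left out.

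The genes around the family were then counted by role, from lists drawn up from textbook knowledge. Earlier results of these data were known when the lists were chosen, so the counts are descriptions. Over all genes tested 7.27% were called higher in Lpr against Ctr, 11.0% without Lpr replicate 3 and 13.1% in DNase against Ctr. Of 21 interferon genes, 19 were not analysed here, Ifnz was too low to test, and Ifng, the gene of interferon gamma, had 3, 1 and 1 counts in Ctr, 20 to 42 counts in Lpr and 14 to 47 in DNase. Ifng was called higher in Lpr than in Ctr (edgeR log2 4.09, adjusted p = 0.00391) and had a log2 fold change of -0.03 between DNase and Lpr. Of 6 interferon receptor genes, 0 were called in Lpr against Ctr and 3 without Lpr replicate 3. Ifngr2, a chain of the interferon gamma receptor, had the smallest p (log2 0.77, edgeR adjusted p = 0.0688). In DNase against Ctr 3 were called higher, Ifngr2 (log2 0.44), Ifnar2 (0.35) and Il10rb (0.34). Of 5 genes that work with IRF9, 1 was called higher in Lpr against Ctr and 3 without Lpr replicate 3. Among these 5 genes, Stat2 (log2 0.94) and the kinase gene Jak1 (0.27) were called higher in DNase against Ctr.

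Of 23 sensors, adaptors and kinases that lie upstream of IRF3, IRF5 and IRF7, 9 were called higher and 0 lower in Lpr against Ctr (median log2 0.78, against 0.03 over all genes, of which 7.27% were called higher), and 14 were called higher without Lpr replicate 3. The smallest p-values belonged to Zbp1, a sensor of Z-form nucleic acid (log2 3.08, SE 0.37), Sting1, the adaptor of cytosolic DNA sensing (2.05, SE 0.25), and Unc93b1, the chaperone of endosomal Toll-like receptors (2.08, SE 0.26). In DNase against Ctr 13 were called higher, led by Zbp1 (log2 2.34), Unc93b1 (1.81) and the RNA sensor Tlr8 (4.36), and 1 was called lower, the kinase gene Ikbkb (-0.41). Of 17 DNA-binding partners and regulators of IRF proteins, 7 were called higher in Lpr (median log2 1.53), led by Spi1, which encodes PU.1 (log2 2.57, SE 0.26), Batf (3.63, SE 0.47) and Batf2 (3.10, SE 0.42). In DNase against Ctr 10 were called higher, led by Ikzf1 (log2 2.67), Ikzf3 (3.43) and Batf (3.61).

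Of 21 measured targets of ISGF3 and IRF7, 15 were called higher in Lpr than in Ctr (median log2 1.80), where 7.27% of all genes were. They were led by Bst2 (tetherin, log2 2.83, SE 0.31), Isg15 (a ubiquitin-like modifier, 1.82, SE 0.30) and Oas1a (an RNA-activated synthetase, 2.14, SE 0.37). Of 19 targets of IRF1, 15 were called higher (median log2 2.90), led by the immunoproteasome genes Psmb8 (4.05, SE 0.26) and Psmb9 (3.76, SE 0.25) and the MHC class I light chain B2m (3.00, SE 0.22). Without Lpr replicate 3 the counts were 19 of 21 and 16 of 18 tested, where 11.0% of all genes were called higher. In DNase against Ctr, where 13.1% of all genes were called higher, 17 of 21 ISGF3 and IRF7 targets were (median log2 0.82). They were led by Parp14, Bst2 and Rtp4 with log2 fold changes of 1.72, 1.98 and 0.99. There 1 target was called lower, the antiviral gene Rsad2 (-0.77, edgeR adjusted p = 0.00492). Of the 18 IRF1 targets tested in this comparison, 17 were called higher (median log2 2.40), led by B2m (2.36), Ciita (3.29) and Psmb9 (3.19).

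Between DNase and Lpr 0 genes of any of these lists were called by edgeR, and DESeq2 called 1, Spib, a partner of IRF4 and IRF8 in B cells and plasmacytoid dendritic cells, which was higher in DNase (log2 1.04, DESeq2 adjusted p = 0.0455, beside edgeR log2 1.05 and adjusted p = 0.820). B cell markers were measured higher in the same comparison, with 6 of 6 tested above 0, a median log2 fold change of 0.99 and 0 called. All 21 targets of ISGF3 and IRF7 had a log2 fold change below 0 (median -0.75, against -0.02 over all genes), 12 of them at an unadjusted p under 0.05, and Oas1a had the smallest p (log2 -1.10, SE 0.29, edgeR adjusted p = 0.820). Of the 19 IRF1 targets 16 were below 0 (median -0.55), 9 at an unadjusted p under 0.05, with Tap2, a peptide transporter of antigen presentation, at the smallest p (log2 -0.74, SE 0.19). Of all 15832 genes tested 7455 were above 0, and 3.43% were lower at an unadjusted p under 0.05. By kidney, the mean log2 CPM of the ISGF3 and IRF7 targets was 4.94, 4.66, 3.51 and 3.82 in Lpr replicates 1 to 4. It was 3.49 to 3.60 in DNase, a range that held Lpr replicate 3. For the IRF1 targets the mean was 6.15, 6.43, 5.58 and 5.51 in Lpr replicates 1 to 4. In DNase it was 5.33 to 5.71, a range that held Lpr replicates 3 and 4. None of the targets passed the adjustment, and targets that respond to 1 signal are not independent of each other. Without Lpr replicate 3 the counts at an unadjusted p under 0.05 were 20 of 21, 13 of 19 and 4 of the 8 factors, with 0 called after adjustment and 1618 of 16006 genes at that unadjusted p. The medians for the sensors (-0.12), the partners (-0.09) and the receptors (-0.21) lay nearer to 0.

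**Figure D4:**
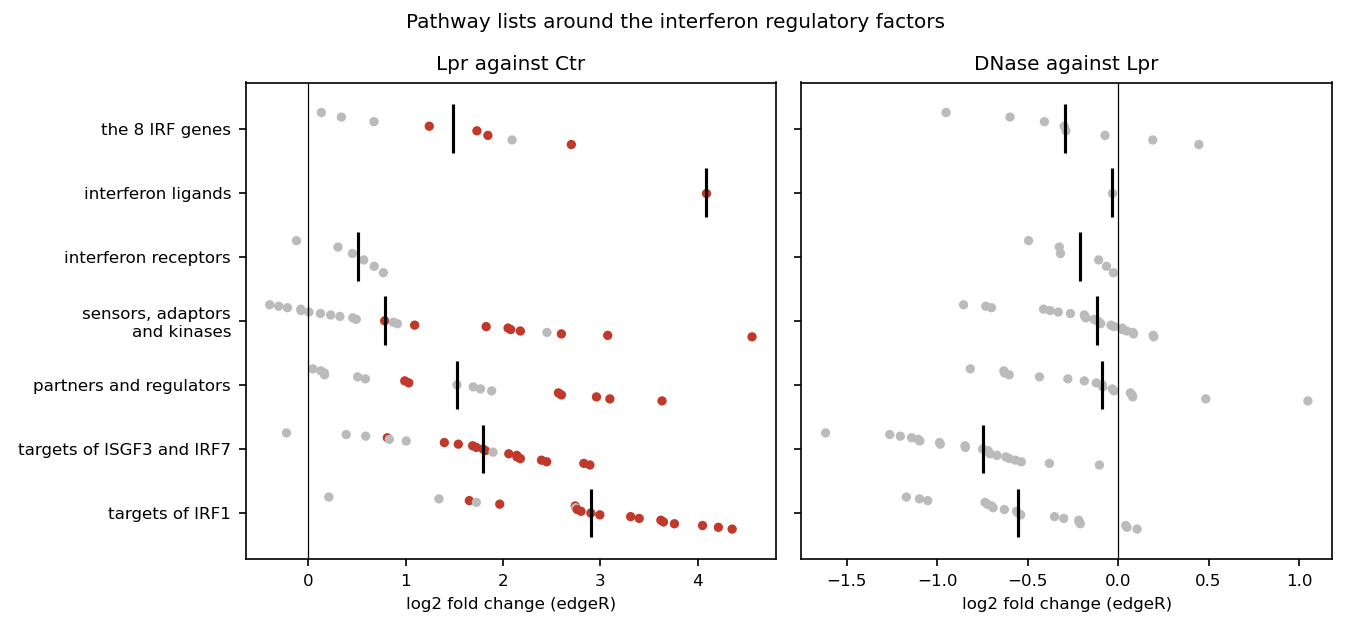
Log2 fold change of every tested gene among the 8 factors and in 6 pathway lists in Lpr against Ctr (left) and DNase against Lpr (right, a narrower axis), with red points called higher by edgeR at an adjusted p under 0.05, grey points not called and a black bar at each list median. On the left the medians of ISGF3 and IRF7 targets (1.80) and IRF1 targets (2.90) lie above that of the 8 factors (1.49), and on the right no gene is called and the medians are -0.75, -0.55 and -0.29.

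Across the 8 MRL/lpr kidneys the factors did not vary as 1 block. Irf1, Irf7 and Irf8 shared an order in which Lpr replicates 1 and 2 stood above replicate 4 and replicate 3 was lowest, as did Stat2 at 75.2, 48.3, 18.1 and 38.1 CPM in Lpr replicates 1 to 4. Ptprc was lower in Lpr replicate 1 than in replicate 4, and Ifng was highest in Lpr replicate 3 at 1.24 CPM, so neither followed that order. Irf4 was highest in Lpr replicate 4 and DNase replicates 2 and 4.

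**Figure D5:**
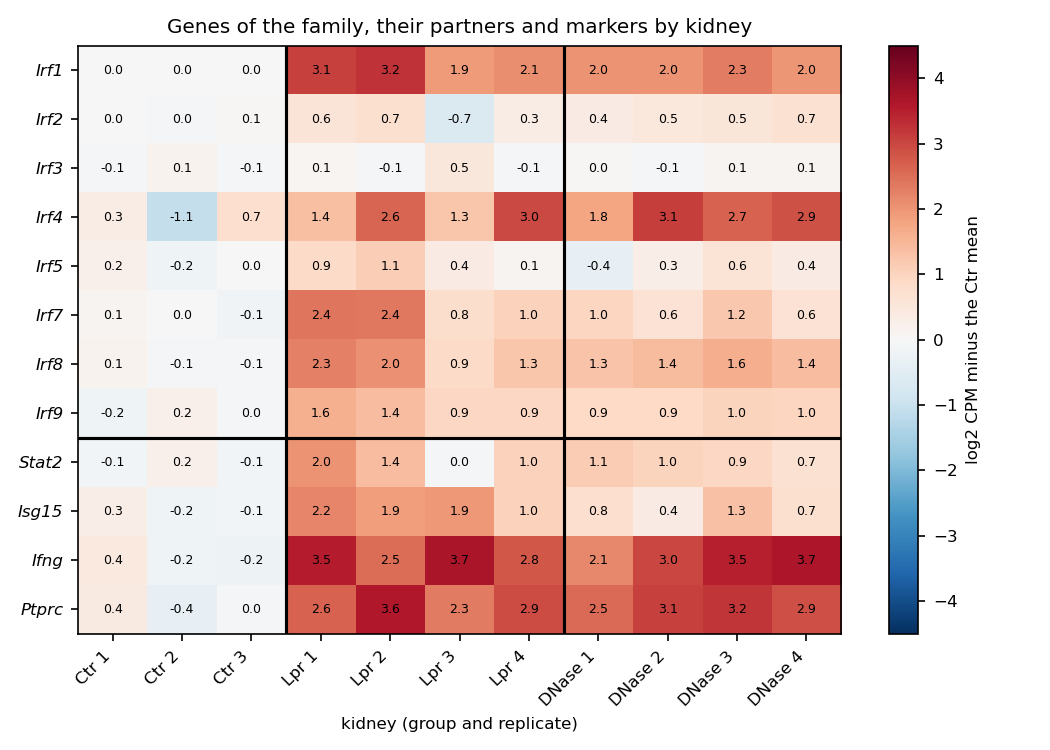
Log2 CPM of each gene minus its Ctr mean (colour and printed value) in each of the 11 kidneys, with the 8 factors above the horizontal line and Stat2, Isg15, Ifng and Ptprc below it. Irf1, Irf7, Irf8 and Irf9 are darkest in Lpr replicates 1 and 2, Irf4 follows another order, and Irf3 stays near 0 apart from Lpr replicate 3.

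The genes most like each factor were found by Pearson's r of log2 CPM over the 8 MRL/lpr kidneys and over the 7 without Lpr replicate 3, taking the smaller of the 2 values, among 13186 genes with a mean of at least 1 CPM. The values are descriptions over few kidneys that share groups and libraries, and the best of so many genes will be high in any case. Irf1 was most like Lrrc41 (smaller r 0.990), Trafd1 (0.986) and Irf7 (0.978). Irf7 was most like Lrrc41 (0.986), Oasl1 (0.979) and Tor3a (0.979), and Irf9 most like Oas1g (0.981), Dhx58 (0.973) and Adat3 (0.972). Oasl1, Oas1g and Dhx58 are interferon-stimulated genes, and 2 of them stand on the ISGF3 and IRF7 list and 1 on the sensor list.

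Irf4 was most like Pou2af1 (smaller r 0.971), a B cell coactivator, then Idi1 (0.951) and Wapl (0.948). Irf5 was most like Fcgr3 (0.979), an Fc receptor of myeloid cells, Nrros (0.976) and Ms4a6c (0.963). Irf8 was most like Szrd1 (0.969), Zfp385a (0.968) and Serpina3f (0.965). Irf3 was most like Tpi1 (0.994), Tmem223 (0.985) and Morn2 (0.979), and Irf2 most like Pgghg (0.919), Lasp1 (0.905) and Spns2 (0.905). For Irf2 the r over 8 kidneys was 0.988, 0.990 and 0.961, so the likeness was weaker without Lpr replicate 3.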

How the data were processed

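RNA of 11 mouse kidneys (3 Ctr, 4 Lpr, 4 DNase) was sequenced, 1 library per mouse. The authors deposited whole-number counts per gene symbol without normalization and FPKM values made from them with a length per gene. The submitters' notes name fastp, HTSeq and build mm10 (R 3.2.0, DESeq2). The annotation release and strand setting are not given in the sources used here. All columns were used (0 unused).

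Pairs of groups were tested with edgeR 4.0.16 (filterByExpr, TMM, quasi-likelihood test) in R 4.3.3, with Benjamini-Hochberg adjustment over all genes tested. DESeq2 1.42.0, named in the study, and limma 3.58.1 on log2 FPKM with a pseudocount of 1 or 0.1 were alternatives. A call needed an adjusted p under 0.05. Log2 CPM used a prior count of 2. Promoters came from RefSeq and gene overlaps from GENCODE M21 (both GRCm38, the mm10 assembly). Figures used python 3.11.15 and matplotlib 3.10.9. The edgeR fit was tested on simulated counts with known changes.

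The 8 members and the gene lists were chosen with earlier results of these data known. All members are named, and of each list the called genes with the 3 smallest p in each direction, or the gene with the smallest p where none was called. Stat2 and Ptprc are always named. 1 item of the lists is not reported here. The labels name mice by group and number only, so p-values measure the spread between these libraries, and no pair of replicates agreed within sampling noise (chi-square per degree of freedom of 16.5 or more). Totals of 33469858 to 38460873 counts put at least 19 counts on each member in each kidney.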

Additional observations from a re-analysis of the deposited data

Results flagged for a closer look

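Irf1 in DNase replicate 3 stood at 131 CPM, apart from the other 3 DNase kidneys at 106 to 109 CPM. The gap to the nearest kidney took up 0.855 of the range of the group, above the critical value of Dixon's test for 4 samples. Of the 16 groups of 4 kidneys tested (8 factors in Lpr and in DNase), this was the 1 flagged, and chance flags about 1 in 20. The same kidney had the highest Irf5, Irf7, Irf8 and Irf9 of its group, at 24.4, 43.1, 62.4 and 46.2 CPM, and the highest Ptprc, at 82.3 CPM. The part of leukocyte content in these values was not tested.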

How the results depend on the processing

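Of the 13 other settings tried for each comparison, none called a member between DNase and Lpr. For Lpr against Ctr the 4 members called became 1 with the fold limit and 2 at an adjusted p under 0.01, and 1 to 6 when 1 kidney was left out, with 1, 2 and 1 without Ctr replicate 1, 2 or 3. The 48 pathway genes called became 31 at an adjusted p under 0.01 and 31 to 63 when 1 kidney was left out, with 31 without any 1 Ctr kidney. For DNase against Ctr the 6 members became 2 with the fold limit, and the 66 pathway genes became 38 with all 3 groups in 1 fit and 25 with the fold limit. Pathway calls between DNase and Lpr went from 0 to 1 with DESeq2. Irf1 kept its call in Lpr against Ctr and in DNase against Ctr under every setting.

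Log2 fold changes that changed sign without Lpr replicate 3 ran, over the fits that left out 1 kidney, from -0.0210 to 0.21 for Irf3 in Lpr against Ctr, from -0.0342 to 0.34 for Irf2 in DNase against Lpr and from -0.15 to 0.0775 for Irf3 in DNase against Lpr. With 5 pan-leukocyte genes in place of Ptprc, Irf3 in DNase against Lpr changed sign to 0.10 and Irf4 in DNase against Ctr to 0.15. The DNase against Ctr differences became -0.37 for Irf1, -1.94 for Irf2, -2.23 for Irf5, -1.59 for Irf7 and -1.03 for Irf8. The cause of these changes was not tested. The trend over gene length was removed in a setting chosen after seeing the data.

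The replicate numbers did not pair the kidneys (correlations of deviations of -0.23 to 0.08 in Lpr against Ctr, -0.12 to 0.18 in DNase against Lpr and -0.29 to -0.07 in DNase against Ctr). With the replicate block, 4, 0 and 5 members and 43, 0 and 47 pathway genes were called in these comparisons, and Irf2 in DNase against Ctr lost its call (log2 0.46, edgeR adjusted p = 0.0538).

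Counts were at least 438 in every kidney for 7 of the 8 factors and 19 to 448 for Irf4, so depth limits Irf4 more than the others.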
